A study of Mus musculus with 4 samples.

Results

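CD8 T cells of mouse periwound skin were examined in 4 single-cell RNA libraries. The population was selected on measured values: a cell was a member if it held at least 1 UMI (unique molecular identifier, 1 counted mRNA molecule) of Cd3d, Cd3e or Cd3g, at least 1 of Trac, Trbc1 or Trbc2, and at least 1 of Cd8a or Cd8b1, with no UMI of Foxp3, Trdc or C1qa. Only cells in which 200 to 3000 genes were detected, and whose mitochondrial share of UMIs did not exceed 10%, were considered. The gate took 156 of 6443 such cells, from 7178 deposited ones: 25 in Control replicate 1, 54 in Control replicate 2, 31 in hucMSC-Exo replicate 1 and 46 in hucMSC-Exo replicate 2.

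CD8 T cells recognise peptides on MHC class I through an alpha beta T cell receptor (TCR), with the CD8 coreceptor, a pair of the chains encoded by Cd8a and Cd8b1, binding the same MHC molecule. Activated cells kill targets with perforin and granzymes released from granules, and they secrete interferon gamma and chemokines such as Ccl5, which attract other leukocytes. In skin, part of them remain in the tissue as resident memory cells, which use the integrin encoded by Itgae to bind epithelium, while others recirculate through blood and lymph nodes. NKT cells are a separate alpha beta lineage with an invariant receptor, the transcription factor Zbtb16 and, in this strain, the NK receptor Klrb1c.

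All 4 libraries came from C57/BL6j mice that were 6 weeks old and carried full-thickness punch wounds of 8 mm on the back, collected on day 7. The 2 Control mice received PBS around the wound, and the 2 hucMSC-Exo mice received 100 μg of exosomes (membrane vesicles shed by cells) from cultured human umbilical cord mesenchymal stem cells, injected every 48 hours. No transgene, deletion or cell sort was involved. Each library held the cells of 1 mouse, so the mouse was the replicate, and 2 against 2 mice limited what could be tested between groups. The labels name a section of gut as tissue and skin as cell type. Keratin RNA of skin was present in members of every library: Krt5 had a UMI in 49.4% and Krt14 in 74.4% of them, close to the 47.2% and 76.2% of myeloid cells, which do not make keratins. Of 9 gut epithelial genes, Vil1, Cdx1, Fabp2, Muc2 and Krt20 were listed but had no UMI in any member, Cdx2 and Fabp1 were not listed, and Lgals4 and Epcam, which other epithelia also express, were found in 3 and 4 members. The gut list summed to 0, 11.7, 21.9 and 8.74 CPM.

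Library values are given below with both Control mice first, replicate 1 before replicate 2, and then both hucMSC-Exo mice in the same way. In this order the members held 125815, 255753, 137000 and 228787 UMIs. Their median UMI count per cell was 4567, 3953.5, 3848 and 4186.5. A gene with no UMI in a library could therefore have lain at up to 23.8, 11.7, 21.9 and 13.1 CPM (counts scaled to a library total of 1000000), the level that 3 UMIs would give. Levels are CPM of the UMIs summed over the cells of a type in a library. 6 cell barcodes occurred in more than 1 library, and 0 of them were members.

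The coreceptor genes, which lie side by side on chromosome 6 (GRCm38; Cd8b1 at chr6:71322788-71337494 and Cd8a at chr6:71373427-71379173, both protein-coding), chose the members, so their levels are a description. Cd8a stood at 540, 344, 372 and 415 CPM and Cd8b1 at 413, 325, 401 and 376 CPM. Both chains were detected in 80 of the 156 cells, Cd8a without Cd8b1 in 40, and Cd8b1 without Cd8a in 36. The gate was met by a single Cd8a or Cd8b1 UMI in 50 cells, the members just inside the threshold. Just outside it stood 405 cells with Cd3 and TCR UMIs but none of Cd8a, Cd8b1 or Cd4, and 21, 15 and 3 cells with Cd8 UMIs that were left out for Foxp3, Trdc and C1qa. Cd4 UMIs were found in 9 members.

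The name under which the population was proposed, CD8 and NKT-like alpha beta T cells, was checked against its markers Cd8a, Cd8b1, Gzmc, Cd160, Ccl5 and Tbx21. Ccl5 was found in 98 of the 156 members (62.8%), against 11.6% of CD4 T cells and 11.7% of myeloid cells, which had median depths of 4583 and 7305 UMIs against 4163 in members. With every cell thinned to 1000 UMIs, which left out 1 member, the shares were 52.3%, 7.47% and 7.14%. Tbx21, a transcription factor of interferon gamma-producing cells, was found in 29 members and Cd160, a receptor for HVEM and nonclassical MHC, in 26. Cd160 stood at 310 CPM in Control 1 and at 19.6, 43.8 and 39.3 CPM in the others. Gzmc, which encodes a granzyme best known from NK and strongly activated T cells, was found in 5 members.

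Of the 8 genes of the NKT and innate-like list 5 were listed and 4 had UMIs, with a sum of 101 to 119 CPM in members against 158 to 201 CPM in CD4 T cells. Klrb1c had UMIs in 0 of 156 members, which allows a share of up to 1.92% of cells with a UMI at a limit of 3 cells, or 2.34% by the exact 95% interval, while NK cells of the same libraries held 383, 140, 224 and 374 CPM of it. Zbtb16 was found in 6 members, 2 in Control 2 and 4 in hucMSC-Exo 2, and the receptor segments Trav11 and Trav1 were not listed. Slamf1 and Slamf6, signalling receptors that conventional T cells also carry, were found in 31 and 15 members (19.9% and 9.62%), against 37.3% and 9.54% of CD4 T cells and 0.343% and 8.92% of myeloid cells. With Klrb1c at 0 and Zbtb16 in few cells, the population is called by its rule, CD8 T cells, here.

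Markers of other cells were present in part. Of the NK cell list, Ncr1, Klra8, Klra4 and Klrb1c were at 0 and Klre1, Eomes and Gzma had UMIs, with a summed level of 21.9 to 633 CPM. Of the gamma delta T cell list, Trdc (by the gate) and Sox13 were at 0, 4 of 11 genes were not listed, and the others summed to 7.95 to 73.0 CPM. Any gene of the gamma constant region (Tcrg-C) was found in 19 members. The neutrophil list summed to 31.8, 1396, 102 and 131 CPM, with Cxcr2 at 0, and 1 cell of Control 2 held 123 of its 136 S100a8 UMIs and 188 of its 199 S100a9 UMIs. The macrophage and monocyte list summed to 633 to 1073 CPM and the dendritic cell list to 184 to 1416 CPM, with Flt3 and Xcr1 at 0. Their part in the results below was not tested.

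Receptor variable genes were sparse, because 3′ libraries hold little of the receptor's 5′ end. Members held 19 UMIs of 9 Trav genes and 21 UMIs of 10 Trbv genes, spread over 15 and 17 cells. Among V genes the highest total was 17 UMIs of Trgv2, a gamma chain segment. The far more numerous Trdc-positive T cells, 1683 in all, held 570 UMIs of it, and the 241 CD4 T cells held 1. Trgv2 was found in members of all 4 libraries, at 3, 7, 3 and 4 UMIs.

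The first comparison asked whether treatment changed how common the cells were among the deposited cells. CD8 T cells made up 2.63%, 2.60%, 2.19% and 2.30% of kept cells. Both Control shares lay above both hucMSC-Exo shares, 2.61% ± 0.0158 against 2.24% ± 0.0775 (mean ± SD, n = 2 each), but the 95% exact binomial (Clopper-Pearson) interval of every library covered the others, from 1.71% to 3.85% in Control 1 and from 1.49% to 3.09% in hucMSC-Exo 1. The difference was -0.371 percentage points, and a two-sided exact permutation test gave p = 0.333, the smallest that 2 against 2 libraries allow. Intervals cover counting error only. The shares are of deposited cells, which are fewer than the study describes, and not of all cells of the wound. The study separated Ptprc-positive immune cells by computation, and whether this chose the deposited barcodes was not tested. In all kept cells the keratinocyte list summed to 1119, 538, 895 and 743 CPM, against 1057, 547, 927 and 743 CPM in members. Of the cells with Cd3 and alpha beta TCR UMIs, members made up 4.81%, 7.63%, 4.90% and 6.28%, with the groups overlapping (exact permutation p = 1).

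**Figure D1:**
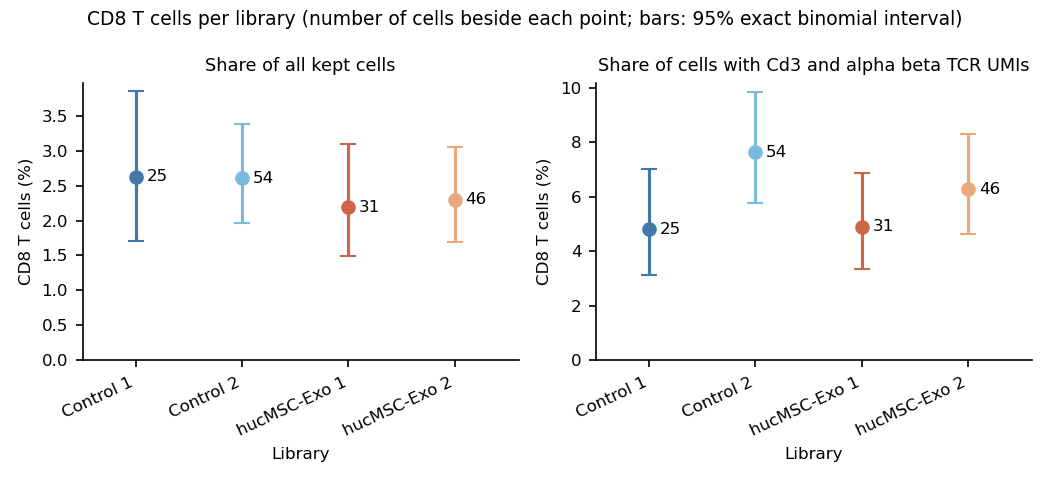
CD8 T cells as a percentage of all kept cells (left) and of cells with Cd3 and alpha beta TCR UMIs (right), per library; points are shares, bars are 95% exact binomial intervals and the numbers count the cells. The intervals of the 4 libraries overlap in both panels.

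The members were not uniform, and a group of effector genes was shared by only part of them. Ccl5 was the most abundant transcript of the cytokine list, at 3879, 5607, 2073 and 4423 CPM, with the lowest level in hucMSC-Exo 1. Nkg7, a membrane protein of cytotoxic granules, was found in 124 cells, at 1089, 946, 745 and 979 CPM. Granzymes were rarer. Gzmb was found in 50 members, Gzmk in 31 and Gzma in 21, and 63 members held at least 1 of these 3 genes.

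Those 63 cells were unevenly spread, with 5 of 25 in Control 1, 30 of 54 in Control 2, 3 of 31 in hucMSC-Exo 1 and 25 of 46 in hucMSC-Exo 2. Gzma stood at 199, 360, 0 and 450 CPM, and Gzmb at 103, 481, 7.30 and 433 CPM. The library hucMSC-Exo 1 was the lowest for both, and its NK cells were also the lowest for Gzma, at 149 CPM against 2203 to 3542 CPM in the other libraries. Prf1, which encodes perforin, had no UMI in members of hucMSC-Exo 1 and 23.8, 54.7 and 35.0 CPM in Control 1, Control 2 and hucMSC-Exo 2. Within each group, replicate 1 was thus lower in these genes than replicate 2.

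Split by Ccl5, members differed in further genes, given here as a description without a test. In the 98 members with a Ccl5 UMI, Gzmb was found in 44 (44.9%, 95% exact interval 34.8% to 55.3%, counting error of pooled cells only). Gzmk was found in 30 of them, Ccl4 in 44, Ly6c2 in 63 and the transcription factor Eomes in 25. In the 58 members without Ccl5 these genes were found in 6, 1, 5, 11 and 2 cells. The latter were not shallower, with a median of 4567.5 UMIs against 3904.5.

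The members without Ccl5 held more of other genes. Icos, a costimulatory receptor, was found in 45 of 58 (77.6%) against 44 of 98 (44.9%), and stood higher in all 4 libraries, at 739, 1097, 1857 and 1094 CPM without Ccl5 against 320, 225, 457 and 292 CPM with it. Itgae was found in 35 of 58 against 30 of 98, and Tnfrsf4 (OX40, a costimulatory receptor prominent on CD4 T cells) in 17 of 58 against 2 of 98. All 9 members with a Cd4 UMI lay among the cells without Ccl5, of which 44.8% held a single Cd8 UMI against 24.5% of those with Ccl5. Whether cells other than CD8 T cells took part in this difference was not tested.

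Genes of tissue residence were common. Itgae or Itga1, integrin chains of resident cells, were found in 75 members (48.1%). Cxcr6, a chemokine receptor of tissue T cells, was found in 105 members, at 318, 387, 818 and 546 CPM, and Rgs1, a regulator of chemokine receptor signalling high in tissue lymphocytes, in 123. Of the genes of dividing cells, Mki67 was found in 20 members (12.8%) and Top2a in 27 (17.3%), against 6.38% and 5.70% of the deeper myeloid cells and 14.1% and 15.4% of CD4 T cells. Thinned to 1000 UMIs, the shares for Top2a were 7.10% of members, 4.98% of CD4 T cells and 0.910% of myeloid cells, while Ccnb1, Ccna2 and Cdk1 were found in 4, 5 and 11 members before thinning.

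**Figure D2:**
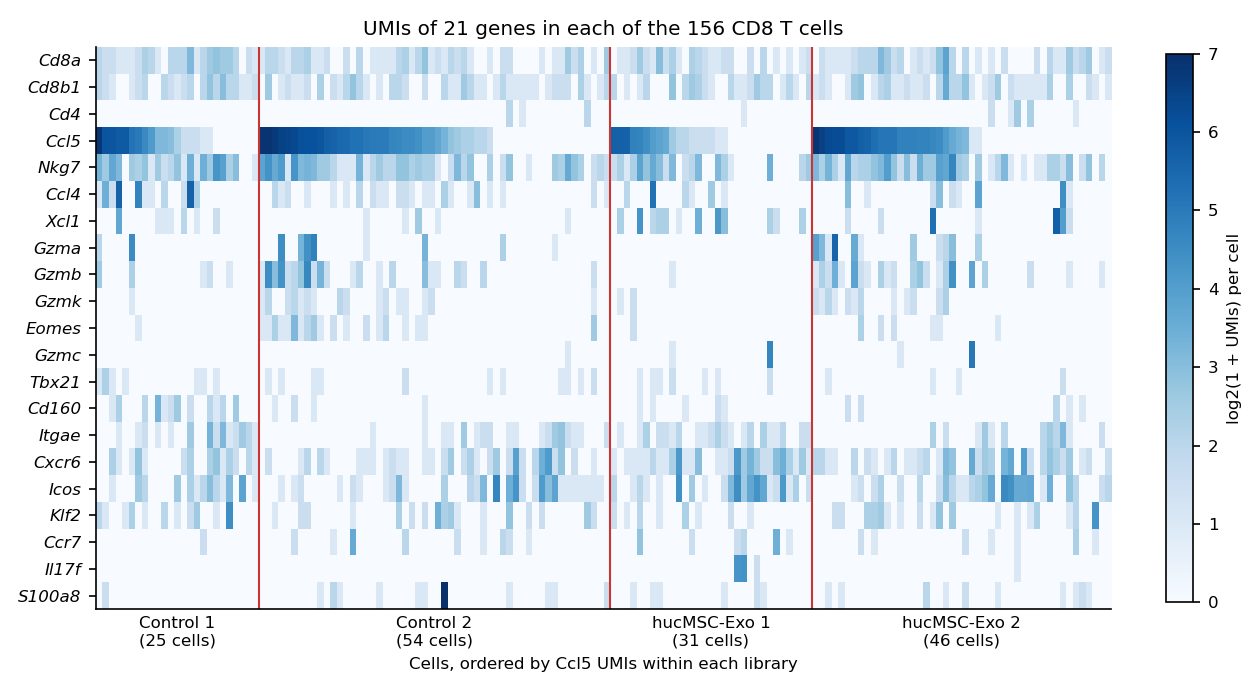
UMIs of 21 genes (rows) in each of the 156 CD8 T cells (columns), ordered by Ccl5 within each library; shade gives log2(1 + UMIs) and red lines part the libraries. Gzma, Gzmb and Gzmk lie mostly among Ccl5-high cells of Control 2 and hucMSC-Exo 2, Icos is darker among cells without Ccl5, and Gzmc rests on 1 dark cell in each hucMSC-Exo library.

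CD8 T cells were next compared with the 241 CD4 T cells of the same libraries (29, 97, 53 and 62 cells). These were gated with Cd4 in place of Cd8 and had no UMI of Cd8a or Cd8b1. The CD8 gate did not exclude Cd4, so the 9 members with Cd4 UMIs stayed on the CD8 side. The fit took the library as a block and left out the gate genes. Ccl4, Nkg7, Ly6c2 and Klrk1 were among the genes higher in CD8 T cells, and Tnfrsf4, Tnfsf8, Tnfsf11 and Rora were among those lower. Of 2856 genes tested by edgeR, 151 (5.29%) had a Benjamini-Hochberg adjusted p under 0.05, 69 higher (2.42%) and 82 lower (2.87%) in CD8 T cells, and 134 of them went the same way in all 4 libraries.

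Ccl5 and Ccl4, chemokine genes of chromosome 11, showed the widest gap. Ccl5 stood at 195, 170, 75.1 and 96.4 CPM in CD4 T cells, below every CD8 library; as a marker used to propose the population it is given without a test. Ccl4 stood at 1176, 160, 365 and 240 CPM in CD8 T cells and at 31.4, 2.02, 13.3 and 5.67 CPM in CD4 T cells, a log2 fold change of 5.27 ± 0.28 (SE, 4 libraries; edgeR adjusted p = 1.49e-08). The lowest CD8 library lay above the highest CD4 library. It was found in 49 members, and few cells carried much of it: in Control 1, 2 cells held 49 each of 148 UMIs, and in hucMSC-Exo 1 a single cell held 37 of 50.

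Nkg7 was higher by 2.35 ± 0.19 on the log2 scale (adjusted p = 1.56e-06), with CD4 T cells at 409, 160, 115 and 153 CPM, all under the lowest CD8 library. Ly6c2, a surface antigen of memory CD8 T cells and monocytes, stood at 628, 755, 182 and 586 CPM against 81.7, 32.4, 53.0 and 36.9 CPM (log2 fold change 3.55 ± 0.31, adjusted p = 5.67e-06). Cd7, a receptor of T and NK cells, stood at 294, 93.8, 263 and 39.3 CPM against 12.6, 6.07, 61.9 and 14.2 CPM (2.83 ± 0.39, adjusted p = 0.000522), with the lowest CD8 library below the highest CD4 library. Sema6d, a semaphorin, was higher by 2.57 ± 0.35 (adjusted p = 0.000522).

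Cst6 and S100a8 also passed, but rested on single cells. Cst6, a secreted cysteine protease inhibitor of epidermis, stood at 79.5, 43.0, 109 and 2448 CPM in CD8 T cells, and 546 of its 560 UMIs in hucMSC-Exo 2 lay in 1 cell. With the highest cell of every gene left out in each library, its log2 fold change fell from 2.76 to 0.44 (adjusted p = 0.531). S100a8, a neutrophil protein, stood at 15.9, 532, 51.1 and 61.2 CPM, and after that step it no longer passed the filter on low counts.

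Among the genes lower in CD8 T cells, Tnfrsf4 stood at 103, 86.0, 109 and 122 CPM against 534, 716, 765 and 978 CPM in CD4 T cells (log2 fold change -2.83 ± 0.18, adjusted p = 7.87e-08), with no overlap between the types. Tnfsf8, which encodes CD30 ligand, stood at 7.95, 15.6, 139 and 96.2 CPM against 314, 451, 415 and 417 CPM (-2.75 ± 0.37, adjusted p = 0.000522), and Tnfsf11, which encodes RANKL, at 39.7, 11.7, 43.8 and 17.5 CPM against 107, 190, 150 and 85.1 CPM (-2.38 ± 0.37, adjusted p = 0.0014). Both ligand genes were higher in every CD4 library than in any CD8 library.

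Further genes lower in CD8 T cells were Il1rl1, the IL-33 receptor (-1.94 ± 0.24, adjusted p = 0.000247), Tnfrsf9, the costimulatory receptor 4-1BB (-1.84 ± 0.28, adjusted p = 0.00106), Tmem64 (-1.75 ± 0.25, adjusted p = 0.000643), Rab11fip1, an adaptor of recycling endosomes (-1.97 ± 0.31, adjusted p = 0.00152), and Ifitm1, an interferon-induced membrane protein (-2.27 ± 0.42, adjusted p = 0.00546). Each was lower in 4 of 4 libraries.

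Fixed lists placed these genes in groups, and are described by counts beside the median log2 fold change of 0.0041 over all 2856 genes, of which 2.42% were higher and 2.87% lower. The counts and medians include Ccl5, which was a proposed marker. Of 18 cytotoxic effector genes 11 were tested, with a median of 0.93. Gzma, Fasl, Nkg7, Ctsw and Cst7 were higher and Srgn, the granule proteoglycan that many leukocytes make, was lower. Gzma was higher in 3 of 4 libraries, since hucMSC-Exo 1 had no UMI in either type, and Gzmb, at 157, 68.8, 124 and 181 CPM in CD4 T cells, did not pass (log2 fold change 0.93 ± 0.51, adjusted p = 0.4). Ctsw, a cathepsin of cytotoxic cells, was higher by 1.62 ± 0.29 (adjusted p = 0.00371).

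Of 26 NK receptor and adaptor genes 7 were tested, with a median of 1.01, and 5 were higher, 0 lower. They were Klrd1 and Klrc1, the chains of the CD94/NKG2A receptor (1.82 ± 0.38 and 1.07 ± 0.21, adjusted p = 0.00844 and 0.00683), Klrk1, the activating receptor NKG2D (1.35 ± 0.25, adjusted p = 0.00548), its adaptor Hcst (0.58 ± 0.13, adjusted p = 0.016), and Fcer1g, an adaptor of Fc and NK receptors (1.01 ± 0.25, adjusted p = 0.0292). Klrk1 was found in 81 members (51.9%) and in 7.62% of myeloid cells. Fcer1g was found in only 18 members, against 98.4% of myeloid cells, and a single cell held 22 of its 26 UMIs in Control 1. Whether myeloid RNA took part in its call was not tested.

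Of 22 cytokine and chemokine genes 10 were tested, with a median of -0.39. Beside Ccl5, the higher genes were Ccl4 and Xcl1, the chemokine that attracts cross-presenting dendritic cells, and Areg, the growth factor amphiregulin, and Tnfsf11 were lower, Areg in 3 of 4 libraries. Xcl1 stood at 167, 35.2, 569 and 485 CPM against 88.0, 2.02, 274 and 25.5 CPM (2.11 ± 0.43, adjusted p = 0.00789). Ifng, at 143, 58.7, 182 and 118 CPM, did not pass (1.63 ± 0.50, adjusted p = 0.0795).

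The checkpoint and costimulation list, with 15 of 19 genes tested and a median of -0.55, held 7 lower genes (Ctla4, Icos, Tnfrsf4, Tnfrsf9, Tnfrsf18, Cd40lg and Cd5) and 2 higher ones, Cd27 and Cd7. Icos stood at 437, 536, 1029 and 673 CPM against 836, 1082, 1352 and 893 CPM (-0.64 ± 0.13, adjusted p = 0.00722), lower in every library though the ranges overlapped. Tnfrsf18, the costimulatory receptor GITR, stood at 103, 176, 161 and 197 CPM against 358, 479, 420 and 601 CPM (-1.51 ± 0.17, adjusted p = 9.24e-05), and Cd40lg, the helper ligand for B and dendritic cells, at 39.7, 39.1, 36.5 and 39.3 CPM against 62.9, 166, 150 and 108 CPM.

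Of 28 transcription factors 18 were tested, with a median of -0.048. Klf2, which keeps T cells recirculating, and Nr4a2, an early activation factor, were higher (1.60 ± 0.24 and 1.38 ± 0.25, adjusted p = 0.00106 and 0.00509), while Id2, Bhlhe40, Batf, Gata3, Rora and Maf were lower. Klf2 stood at 342, 203, 109 and 271 CPM against 75.4, 64.7, 66.3 and 90.7 CPM, with no overlap. Rora stood at 342, 375, 664 and 363 CPM against 616, 1084, 1490 and 692 CPM (-1.12 ± 0.14, adjusted p = 0.000247). Among 27 homing and residency genes 17 were tested, with a median of 0.19, and Itgae (1.54 ± 0.22, adjusted p = 0.000585) and the retention receptor Cd69 (0.84 ± 0.22, adjusted p = 0.0365) were higher, though the Cd69 call was lost in 8 of 13 alternatives (adjusted p from 0.00785 to 0.247). Itgae stood at 334, 141, 307 and 166 CPM against 119, 62.7, 97.2 and 48.2 CPM.

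Of 20 cytokine receptors 12 were tested (median -0.28), with Il2ra, Il7r and Il1rl1 lower and 0 higher. Of 19 TCR signalling genes 18 were tested (median 0.25), with Txk higher and Cd247, the zeta chain, lower. Of 23 interferon-stimulated genes 8 were tested (median 0.68), with Irf7 and Zbp1 higher. Among 21 cell cycle genes 10 were tested (median -0.029), with H2afz lower, and among 21 immediate early and heat shock genes 20 were tested (median 0.40), with Fos, Dnajb1 and Hspe1 higher. A single call in a list is too few to set it apart from the share over all genes. The calls of Gata3 and Fos were each lost in 8 of 13 alternatives, that of Dnajb1 in 7 of 13, that of Txk in 6 of 13 and that of Fcer1g in 7 of 11. Areg lost its call in 5 of 13, Fasl and Hspe1 each in 4 of 13, Ifitm1 in 3 of 13 and Gzma in 3 of 11. Only 9 of the 41 genes tracked for this comparison kept their call in every alternative. These counts depended on the fit: without Control 2 the total of 151 genes became 39, and without the library as a block it became 18.

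**Figure D3:**
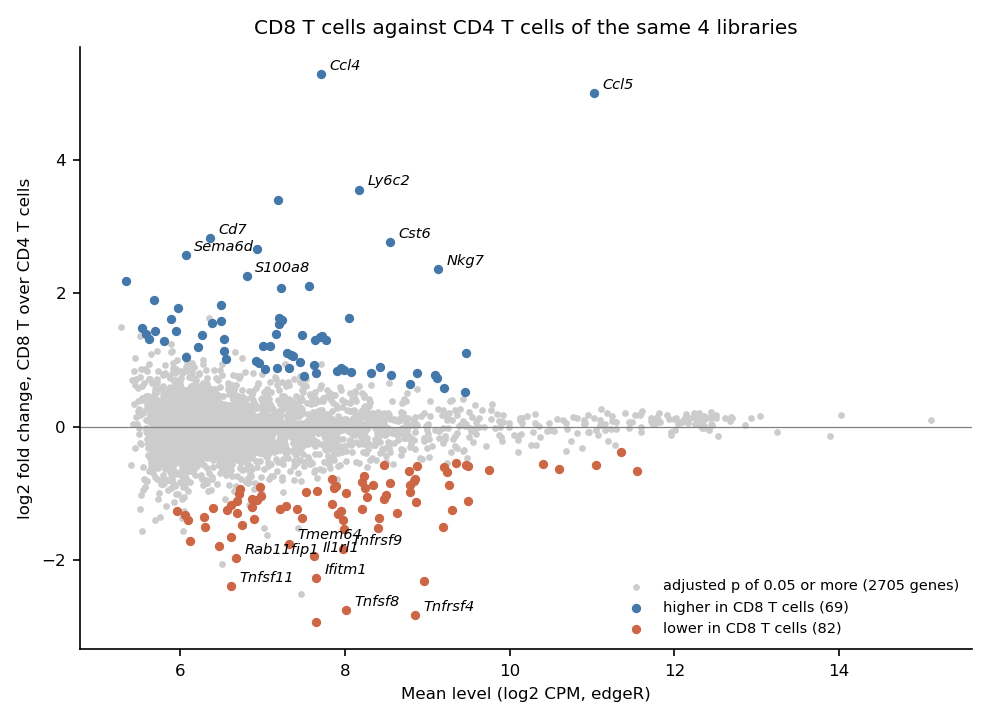
Log2 fold change of CD8 T over CD4 T cells against the mean level (log2 CPM) for 2856 genes, from edgeR with the library as a block. The 69 genes higher in CD8 T cells are blue, the 82 lower ones orange; Ccl4 and Ccl5 lie highest, and named genes are those with the widest change that went the same way in every library.

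The comparison with NK cells asked how far CD8 T cells resembled the other cytotoxic lymphocyte of the tissue. There were 60 NK cells (18, 19, 10 and 13, with Ncr1 and without Cd3 UMIs). Of 1510 genes tested, 84 (5.56%) had an edgeR adjusted p under 0.05, 40 higher (2.65%) and 44 lower (2.91%) in CD8 T cells, and all 84 went the same way in 4 of 4 libraries. Cd6, Lat, Bcl11b and Icos were among the genes higher in CD8 T cells, and Klrb1c, Tyrobp, Fcer1g and Gzma were among those lower.

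Ccl5 and Nkg7 were shared by both. NK cells held 3533, 2140, 261 and 2518 CPM of Ccl5, below the CD8 T cells of each library. Nkg7 stood at 1852, 1486, 803 and 1608 CPM in NK cells, above the CD8 T cells of each library, but did not pass (log2 fold change -0.59 ± 0.16, adjusted p = 0.0582).

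The lineage genes separated the types. Cd6, a T cell costimulatory receptor, stood at 143, 313, 343 and 258 CPM in CD8 T cells and had 0 UMIs in NK cells, at least 30.5-fold higher when 3 UMIs are taken as the limit over all NK cells (edgeR adjusted p = 0.0007). Klrb1c, the reverse case, was at least 69.2-fold lower in CD8 T cells on the same limit (adjusted p = 0.000386). Lat, the adaptor that links the TCR to downstream signalling, stood at 191, 250, 182 and 249 CPM against 21.3, 28.0, 18.7 and 12.5 CPM (log2 fold change 3.36 ± 0.36, adjusted p = 0.000386). Bcl11b, a transcription factor that maintains T cell identity, had 3 UMIs in NK cells, a pooled ratio of 18.8 (95% interval 6.29 to 92.4, counting error only).

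Tnfrsf4 and Ctla4 were also higher than in NK cells, which held 0 and 1 UMI of them, at least 11.6-fold for Tnfrsf4 and by a ratio of 47.0 (8.26 to 1875) for Ctla4. Each lost its call in 1 of 10 alternatives, the fit without hucMSC-Exo 2. Ifi27l2a, an interferon-induced mitochondrial protein, stood at 1001, 1157, 343 and 1097 CPM against 21.3, 28.0, 0 and 0 CPM in NK cells (5.97 ± 0.41, adjusted p = 3.14e-05). Rgs10, a brake on G protein signalling, and Crbn, a substrate receptor of a ubiquitin ligase, each had 2 UMIs in NK cells, with ratios of 31.8 (8.64 to 265) and 22.2 (5.98 to 186).

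On the NK side stood adaptors and receptors. Tyrobp, the adaptor DAP12, stood at 294, 35.2, 168 and 83.0 CPM in CD8 T cells against 2011, 1925, 1606 and 1658 CPM (-3.90 ± 0.39, adjusted p = 0.000279), and Fcer1g at 207, 62.6, 175 and 91.8 CPM against 1575, 1262, 1587 and 1870 CPM (-3.68 ± 0.28, adjusted p = 3.38e-05). Tyrobp was found in only 10 members, of which 1 in Control 1 held 31 UMIs. The receptor gene Klrb1b was lower by 5.43 ± 0.65 on the log2 scale (adjusted p = 0.0007).

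The transcription factor Irf8 (-5.81 ± 0.49, adjusted p = 6.17e-05), the carbonic anhydrase Car2 (-5.92 ± 0.42, adjusted p = 3.14e-05) and Vegfa, the angiogenic growth factor (-5.04 ± 0.59, adjusted p = 0.000674), were lower as well. Gzmc, one of the proposed markers and so given without a test, stood at 0, 3.91, 190 and 144 CPM in CD8 T cells against 298, 1850, 7990 and 3017 CPM in NK cells.

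Against a median log2 fold change of 0.018 over all 1510 genes, the NK receptor list had a median of -2.13 over 11 of 26 genes tested, with 6 lower (Klrb1c, Klrb1b, Klrd1, Klre1, Fcer1g and Tyrobp) and 0 higher. The cytotoxic list had a median of -1.14 over 12 of 18, with 6 lower (Gzma, Prf1, Ctsw, Serpinb9, Serpinb6b and the proposed marker Gzmc, which is part of the count only) and 0 higher. Gzma was lower by 3.16 ± 0.26 on the log2 scale (adjusted p = 5.5e-05), and Serpinb9, a granzyme B inhibitor, by 1.91 ± 0.27 (adjusted p = 0.00206). The checkpoint and costimulation list had a median of 1.48 over 10 of 19, with Ctla4, Cd28, Icos, Tnfrsf4, Cd6 and Cd2 higher and 0 lower. Icos was higher by 3.14 ± 0.47 (adjusted p = 0.00274).

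Among the other lists, the higher genes of TCR signalling included Lck and Lat, and Txk was lower, and cytokines and chemokines had Ltb, a lymphotoxin chain, higher and Ccl3 and Xcl1 lower of 8 tested. Xcl1 was lower by 3.34 ± 0.39 (adjusted p = 0.000674). Transcription factors had Bcl11b and Zeb2 higher and Irf8 lower of 18 tested, and homing genes had Cxcr6 higher (2.15 ± 0.36, adjusted p = 0.0054) and Itga4 lower of 15 tested. The Itga4 call was lost in 9 of 12 alternatives and that of Zeb2 in 6 of 9. Il2rb, the IL-2 and IL-15 receptor chain, was lower by 1.62 ± 0.24 (adjusted p = 0.0025), the only call among 8 cytokine receptors tested; Ifi27l2a was the only call among 3 interferon-stimulated genes. None of 6 cell cycle genes and none of 19 immediate early and heat shock genes passed. Without hucMSC-Exo 2 the total of 84 genes became 39.

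**Figure D4:**
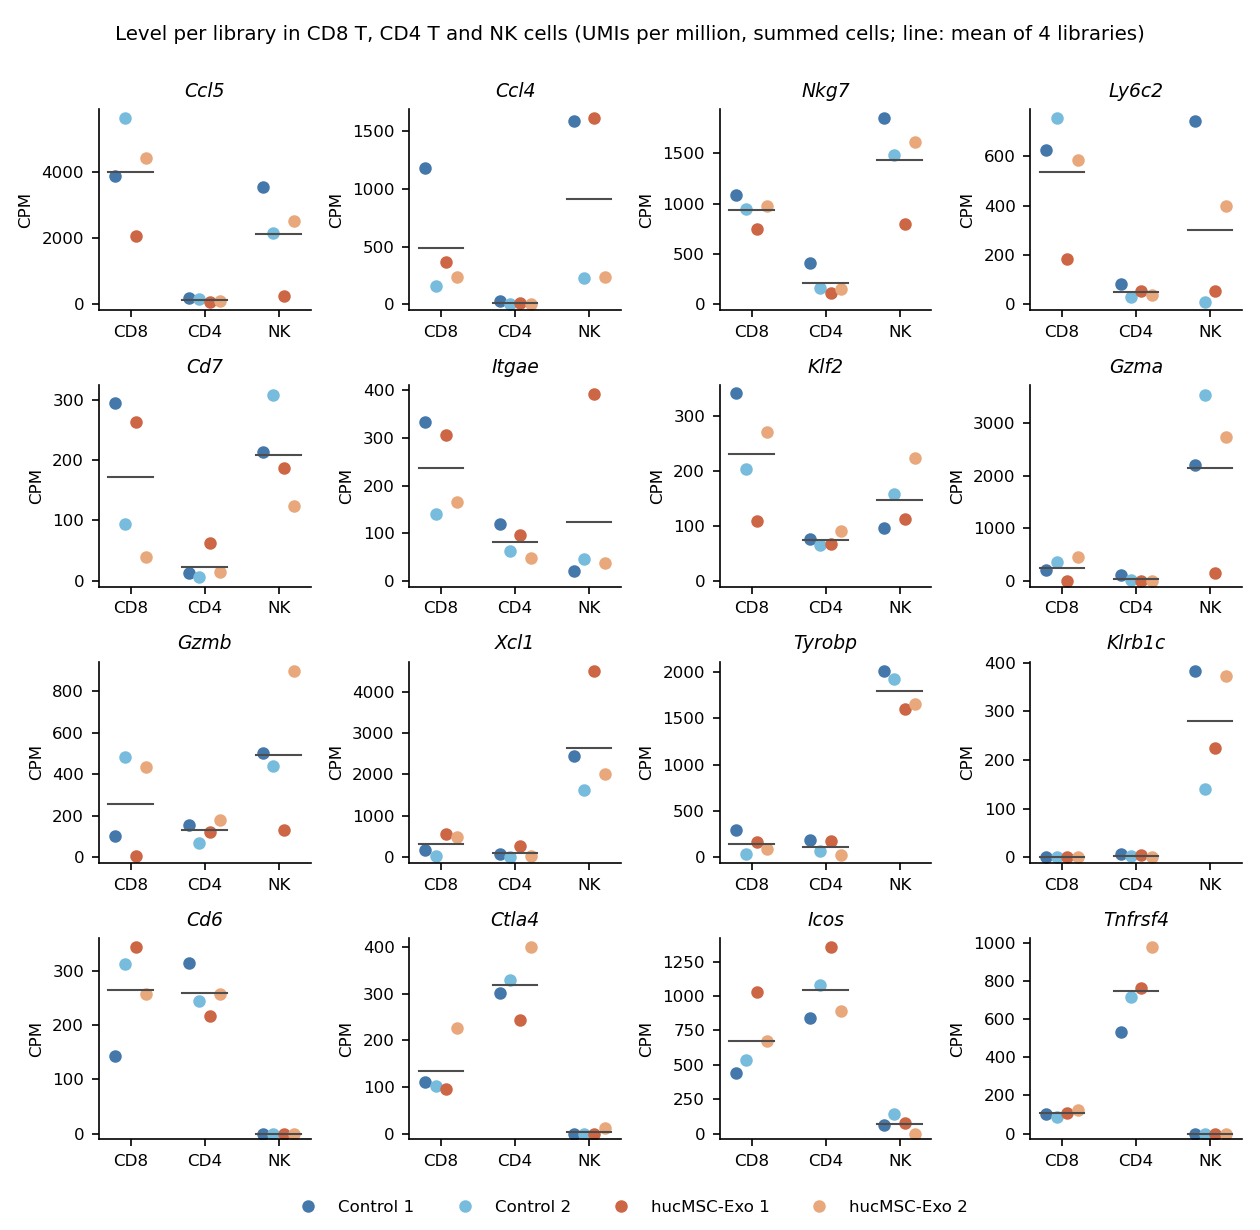
Level (CPM) of 16 genes in CD8 T, CD4 T and NK cells of each library; points are libraries coloured by mouse and lines are means of the 4. Ccl5, Ccl4 and Nkg7 are high in CD8 T and NK cells, Tyrobp, Klrb1c and Gzma are high in NK cells, Cd6, Ctla4 and Tnfrsf4 are at or near 0 in NK cells, and Icos is lower there than in either T cell type.

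Between the treatment groups, the sums of the 4 libraries were compared within CD8 T cells. Of 2554 genes tested by edgeR, 1 (0.0392%) had an adjusted p under 0.05, Gzmc, and 129 had an unadjusted p under 0.05, while DESeq2 called 0. Gzmc had 0 and 1 UMI in the Control libraries and 26 and 33 UMIs in the hucMSC-Exo libraries, a pooled ratio of 61.5 (95% interval 10.6 to 2472, counting error only). It rested on very few cells. In hucMSC-Exo 1 a single cell held 25 of the 26 UMIs and in hucMSC-Exo 2 another held 32 of 33, so each library's level was that of 1 cell. With the highest cell of each gene left out in every library, Gzmc no longer passed the filter on low counts and 0 genes were called.

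No other gene passed the threshold in this fit, but the count rose to 18 with the replicate number as a block. Areg had 6, 14, 37 and 47 UMIs (log2 fold change 2.10 ± 0.40) and Tnfsf8 had 1, 4, 19 and 22 UMIs (3.01 ± 0.58), both with an edgeR adjusted p of 0.253. In hucMSC-Exo 2 a single cell held 45 of the 47 Areg UMIs. Xcl1 had 21, 9, 78 and 111 UMIs (2.45 ± 0.55, edgeR adjusted p = 0.397), with 51 of the 111 in 1 cell. With Control 1, Control 2, hucMSC-Exo 1 or hucMSC-Exo 2 left out, its log2 fold change was 3.83, 1.51, 2.36 and 2.51. Each of these fits leaves 1 library in a group, so it cannot show the spread within that group. Il5, a type 2 cytokine, had 0 UMIs in both Control libraries and 13 in each hucMSC-Exo library, from 3 cells in all. Plac8 had the lowest p among genes lower after treatment, at 310, 524, 175 and 175 CPM (-1.34 ± 0.34, adjusted p = 0.613). These 5 genes were named after their values were seen.

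The fixed lists gave no call beside Gzmc. Against a median of -0.022 over all genes, the median log2 fold change of hucMSC-Exo over Control was -0.18 for 12 cytotoxic genes, 0.58 for 8 cytokines and chemokines, -0.67 for 10 interferon-stimulated genes, 0.57 for 10 cell cycle genes and 0.15 for 20 immediate early and heat shock genes. Of the interferon-stimulated genes, Ifi27l2a was lowest in hucMSC-Exo 1, at 343 CPM against 1001 CPM or more in each other library, and Ifit3, which encodes an antiviral RNA-binding protein, stood at 71.5, 62.6, 0 and 61.2 CPM.

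Members with a Cd8b1 UMI (116) were last compared with those without (40), because heterodimers of both chains mark conventional CD8 T cells while Cd8a alone also occurs on other lymphocytes. The 2 subsets differed in depth, with median UMI counts of 5197.5, 4408.5, 4160 and 4682 with Cd8b1 and 3560, 3018, 3209 and 2935 without, so a missing Cd8b1 UMI can be a missed molecule. Of 962 genes tested, 0 (0%) passed an edgeR adjusted p of 0.05 and 77 had an unadjusted p under 0.05, while DESeq2 called 13.

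The genes nearest the threshold, named after their values were seen, included chemokine and stress genes higher without Cd8b1. Xcl1 stood at 66.0, 15.1, 325 and 31.6 CPM with Cd8b1 and at 711, 106, 1192 and 2681 CPM without (log2 fold change -3.61 ± 0.63, edgeR adjusted p = 0.0662). It was found in 13 of 116 cells (11.2%) with Cd8b1 and in 18 of 40 (45.0%) without. Ccl4 stood at 886, 151, 122 and 94.9 CPM against 2742, 194, 985 and 945 CPM (-2.09 ± 0.41), Fosb, an immediate early factor, differed by -2.06 ± 0.38 and the heat shock gene Hspa1b by -2.41 ± 0.46, each with an adjusted p of 0.0662. Single cells carried much of Ccl4 without Cd8b1, with 49 of 54 UMIs in Control 1 and 37 of 38 in hucMSC-Exo 1, and 1 cell of hucMSC-Exo 2 held 51 of 105 Xcl1 UMIs.

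Cd74, the MHC class II invariant chain, went the other way at the same adjusted p of 0.0662, with 283, 25.1, 843 and 169 CPM in cells with Cd8b1 and 102, 17.7, 130 and 25.5 CPM in those without. A single cell held 26 of 32 Cd74 UMIs in Control 1, 62 of 88 in hucMSC-Exo 1 and 29 of 33 in hucMSC-Exo 2. In the same libraries 1 member each, all with Cd8b1, held 64, 37 and 53 UMIs of the myeloid gene Lyz2 and 31, 14 and 15 of Tyrobp, whose part in the difference was not tested. Gamma constant genes were found in 12 of 116 cells with Cd8b1 (10.3%, 95% exact interval 5.46% to 17.4%) and in 7 of 40 without (17.5%, 7.34% to 32.8%). At least 1 of Gzma, Gzmb and Gzmk was found in 41.4% (32.3% to 50.9%) and 37.5% (22.7% to 54.2%). These intervals pool the cells of all mice and cover counting error only, not the spread between mice, so they do not compare the subsets. Each of the 6 genes nearest the threshold went the same way in 4 of 4 libraries.

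**Figure D5:**
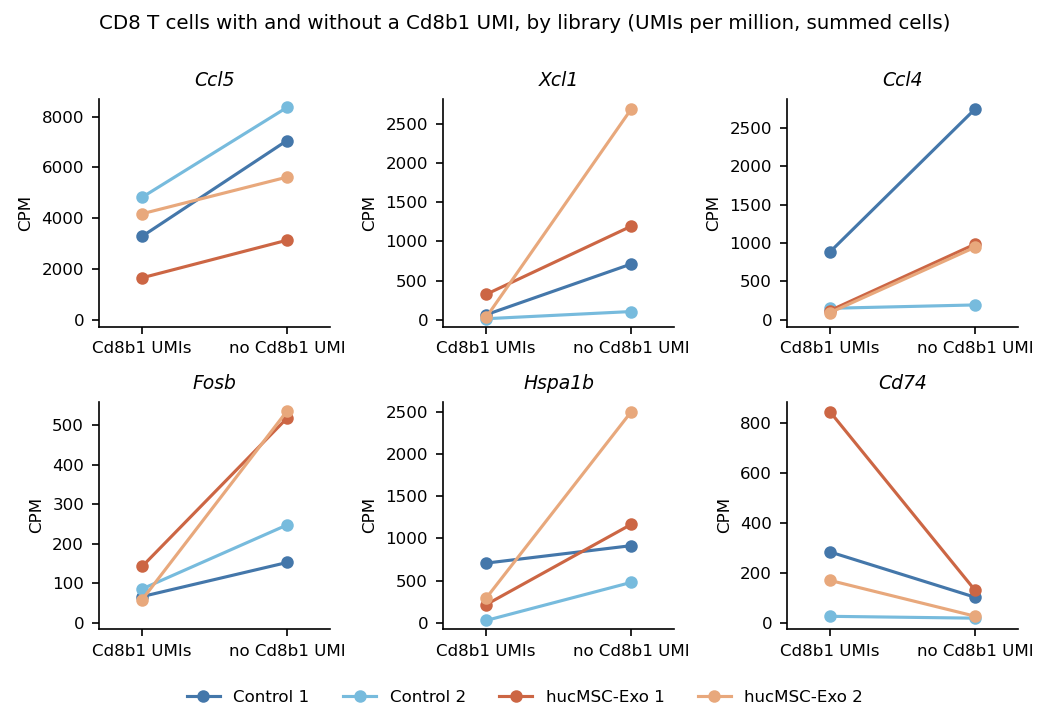
Level (CPM) of 6 genes in CD8 T cells with and without a Cd8b1 UMI, joined by library. Ccl5, Xcl1, Ccl4, Fosb and Hspa1b are higher and Cd74 lower without Cd8b1 in all 4 libraries, and none passed the edgeR threshold.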

How the data were processed

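Single-cell 3′ RNA libraries of periwound skin from 4 mice were used. The authors aligned the reads to mm10 with Cell Ranger 6.1.2, per the submitters' processing notes, and deposited the UMI counts as raw counts per gene and cell. The deposited barcodes are fewer than the cells the study describes per mouse. Groups were taken from sample titles; letters in the matrix names would pair the libraries differently, so every direction between groups rests on the titles. The members and all gene lists were chosen with earlier results of these data known.

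Kept cells had 200 to 3000 genes, with no more than 10% of UMIs mitochondrial. No doublets were removed; leaving out the 10% of cells with the highest Scrublet scores (scanpy 1.11.5) was an alternative, since the caller itself marked 3, 11, 4 and 12 cells. Sums of UMIs over the cells of a type in each library were tested with edgeR 4.0.16 (R 4.3.3; TMM, filterByExpr, quasi-likelihood test, Benjamini-Hochberg adjustment, threshold 0.05). Comparisons of cell types took the library as a block and entered libraries with at least 10 cells of each type, or 5 for the Cd8b1 subsets. Errors of log2 fold changes are standard errors. Shares were compared by an exact permutation test (scipy 1.17.1). The p-values between treatment groups measure the spread between libraries, 2 per group. Those between cell types or subsets measure the spread of the differences within libraries, over 4 libraries. The tests were checked on simulated counts with the same spread set for every gene. Such counts hold no genes carried by single cells, so the check does not cover those. Myeloid cells, used as background, had no Cd3 UMIs and at least 5 Lyz2 UMIs.

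Named were the proposed markers, as values; in each direction the 8 largest changes that passed and went the same way in every library (mitochondrial, ribosomal, Gm and Rik genes left out); each gene that passed between groups; and the most abundant or most changed members of each list. Alternatives were RLE normalization, no filter, DESeq2 1.42.0, other gates, other blocks and leaving out each library. A few members of the gene lists are not reported here. Gene positions are from GENCODE on GRCm38.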

Additional observations from a re-analysis of the deposited data

How the results depend on the processing

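The difference in the share of CD8 T cells kept its direction under every alternative tried. It ran from -0.4256 to -0.316 percentage points with each library left out in turn, a range that does not cover the other gates. As a share of alpha beta T cells it was -0.631. The separation of all Control from all hucMSC-Exo libraries depended on the gate. With at least 2 Cd8 UMIs per cell, members were 33 of 2074 kept cells in Control 2 and 32 of 2001 in hucMSC-Exo 2. The Control 2 share then lay just below that of hucMSC-Exo 2. The labels do not say whether equal replicate numbers paired the mice across groups. The correlation of deviations for number 1 was 0.0841 over 2554 genes, which with 2 libraries per group cannot decide it. With the number as a replicate block the share difference was -0.3708 (exact permutation p = 0.5) and 18 genes passed between groups, Gzmc included. That count of 1 became 25 with no filter on low counts, and 0 with DESeq2, with at least 2 Cd8 UMIs per cell, without the highest doublet scores and, in an alternative chosen after seeing the data, with each gene's highest cell left out of every library. It ran from 14 to 34 with a library left out, where the lone library of a group is assumed to vary like the others.

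Between CD8 and CD4 T cells, 151 genes became 310 with no filter, 83 with DESeq2 and 18 without the library as a block, and 39 to 165 with a library left out, the lowest without Control replicate 2. Between CD8 T and NK cells, 84 became 264 with no filter and 39 to 107 with a library left out, the lowest without hucMSC-Exo replicate 2. Between the Cd8b1 subsets, 0 became 5 with RLE normalization, 32 with no filter, 13 with DESeq2, 11 without the highest doublet scores, 6 without each gene's highest cell and 1 to 8 with a library left out. Of 72 single genes named, 29 kept their call under every alternative in which they were tested and 0 reversed. Those kept were 9 of 41 genes named between CD8 and CD4 T cells and 20 of 30 between CD8 T and NK cells. The causes were not tested. Few cells limit depth: in the smallest library, Control 1, the 25 members held 125815 UMIs.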

Other observations

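Several genes of glucose metabolism and oxygen response, picked out after their values were seen and so no evidence on those processes as a whole, were lower in CD8 than in CD4 T cells. Ldha, which encodes lactate dehydrogenase A, stood at 302, 266, 423 and 441 CPM against 516, 874, 880 and 1137 CPM in the library order used above (log2 fold change -1.24 ± 0.16 SE, edgeR adjusted p = 0.000301). Hif1a, the oxygen-regulated transcription factor, stood at 119, 485, 226 and 258 CPM against 358, 702, 601 and 717 CPM (-1.13 ± 0.18, adjusted p = 0.0017). Hilpda, a lipid droplet protein, differed by -1.54 ± 0.21. Each was lower in 4 of 4 libraries. Other enzymes of glycolysis did not pass, among them Gapdh (-0.36 ± 0.11, adjusted p = 0.0835), Eno1 (-0.39 ± 0.22, adjusted p = 0.43) and Gpi1 (-0.26 ± 0.18, adjusted p = 0.54).

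Il17f, a cytokine of type 17 cells, had 40 UMIs in CD8 T cells, of which 39 lay in 3 cells of hucMSC-Exo 1. The 2 highest of these cells held 19 and 18 UMIs, each with 1 Cd8b1 UMI and 0 of Cd8a. The first of them also held 1 Cd4 UMI. None of the 3 cells had a Ccl5 or Nkg7 UMI, and Il17f was found in 11.2% of CD4 T cells. Whether cells other than CD8 T cells carried it was not tested. The type 17 list summed to 358 CPM in that library and to 39.7 to 89.9 CPM in the others.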
